A study of Mus musculus with 6 samples.

Results

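The genes described here make sterols and fatty acids: 35 genes in all, of which 18 encode enzymes of the route to cholesterol, 7 encode proteins that sense or move sterols and 10 encode enzymes that make or remodel fatty acids. They were chosen by name, with earlier results of these data known. Each was read from the array row that carried its symbol and no other. Where several rows carried one symbol, the row with the highest mean over the 6 arrays was taken. A row was found for 34 of the 35 genes, among 19938 distinct symbols on the array. Acat2 had no such row and enters only the counts of promoter windows. The arrays measured mouse N2A cells, a neuroblastoma line, transfected with 1.5 µg of a vector that expresses a short hairpin RNA (shRNA) against Pou3f3, which encodes a neural POU-domain transcription factor (3 arrays, the knockdown), or with a non-targeting vector (3 arrays, the control). Total RNA was taken 2.5 days after transfection in both groups. The transfections were transient and in a single cell line, in medium with fetal bovine serum, and the tests therefore weigh differences against the spread between cultures of that line. How many of the cells took up the vector was not stated in what was read here. The comparison asked how transcript levels of these genes in knockdown cultures differed from those in control cultures.

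Cells build cholesterol from acetyl-CoA through mevalonate and short isoprenoids, which are joined into squalene, closed into a ring as lanosterol and trimmed step by step to cholesterol. The transcription factors encoded by Srebf1 and Srebf2 drive these genes: when sterols are scarce, Scap escorts them out of the endoplasmic reticulum, and when sterols are plentiful the Insig proteins hold them back. Srebf2 is known mainly for the sterol genes and Srebf1 mainly for the fatty acid genes. Neurons need both products for the membrane of growing neurites.

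All values are log2 array values, and all differences are knockdown minus control. A gene is said to have risen or fallen where the moderated test of limma gave a Benjamini-Hochberg adjusted p under 0.1 over the 21789 rows that carry 1 gene symbol, and is said to have been called where the difference was also at least 1.3-fold (0.38 on the log2 scale).

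The culture carried the markers of its line. Of 14 markers of sympathetic and adrenal neuroblasts, 12 were measured, with means of 9.52 to 13.73 in knockdown cells and 9.91 to 13.80 in control cells. Of these, 5 fell (41.7%, beside 1.79% of all rows). Dbh (-1.17) and Chrna3 (-0.44) were called, where 0.684% of all rows were called lower. The 32 measured markers of hepatocytes, adipocytes, fibroblasts, Schwann cells and oligodendrocytes, astrocytes and macrophages had a median level of 7.20 in knockdown cells (4.92 to 11.47) and 7.31 in control cells (4.96 to 11.26), the highest being Pparg. None of the 32 passed the test, and 28 lay below 0 (87.5%, beside 57.5% of all rows). An unadjusted p under 0.05 was found for 6, of which 4 were lower and 2 higher, beside 10.2% and 9.66% of all rows. With the replicate number as a block, 4 of the 32 fell (12.5%) and 2 rose, beside 10.7% and 12.3% of all rows. Their part in the results that follow was not tested.

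Pou3f3 had values of 8.20, 8.09 and 8.35 in knockdown replicates 1 to 3, against 8.37, 8.30 and 8.47 in control replicates 1 to 3. In every pair of arrays with one number the knockdown value was the smaller, but the groups overlapped. The difference was -0.16 ± 0.08 (SE, n = 3 arrays each, 95% confidence interval -0.35 to 0.02) and did not pass (limma adjusted p = 0.303; exact permutation test, two-sided, p = 0.2, where 3 arrays against 3 cannot go below 0.1). With the replicate number as a block it did (limma adjusted p = 0.0880). The groups are therefore named by their labels throughout, and only these array values of Pou3f3 were examined here.

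Of the 34 measured genes, 31 were lower in knockdown than in control cells, with a median difference of -0.15, beside 57.5% of all tested rows below 0, 42.5% above it and a median of -0.03 over those rows. The test was passed by 6 of the 34, all with lower levels in knockdown cells: the sterol enzyme genes Sqle, Lss, Msmo1, Nsdhl and Sc5d, and the acetyl-CoA synthetase gene Acss2. That is 17.6% of the members, where 1.79% of all tested rows fell and 2.66% rose. None of the 34 was called in either direction with limma, where 0.684% of all rows were called lower and 1.3% higher, or with the replicate number as a block, where the shares were 0.757% and 1.74%, since the largest difference, that of Msmo1, was -0.36. At an unadjusted p under 0.05 there were 9 lower members and 1 higher, beside 10.2% and 9.66% of all rows. The members are abundant transcripts, with 28 of the 34 at a mean level above 11. Of the 4288 rows above that level, 43.6% lay below 0 and 2.29% fell. In RNA from whole cultures, a lower level per cell and a smaller share of cells with the transcript cannot be told apart.

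**Figure D1:**
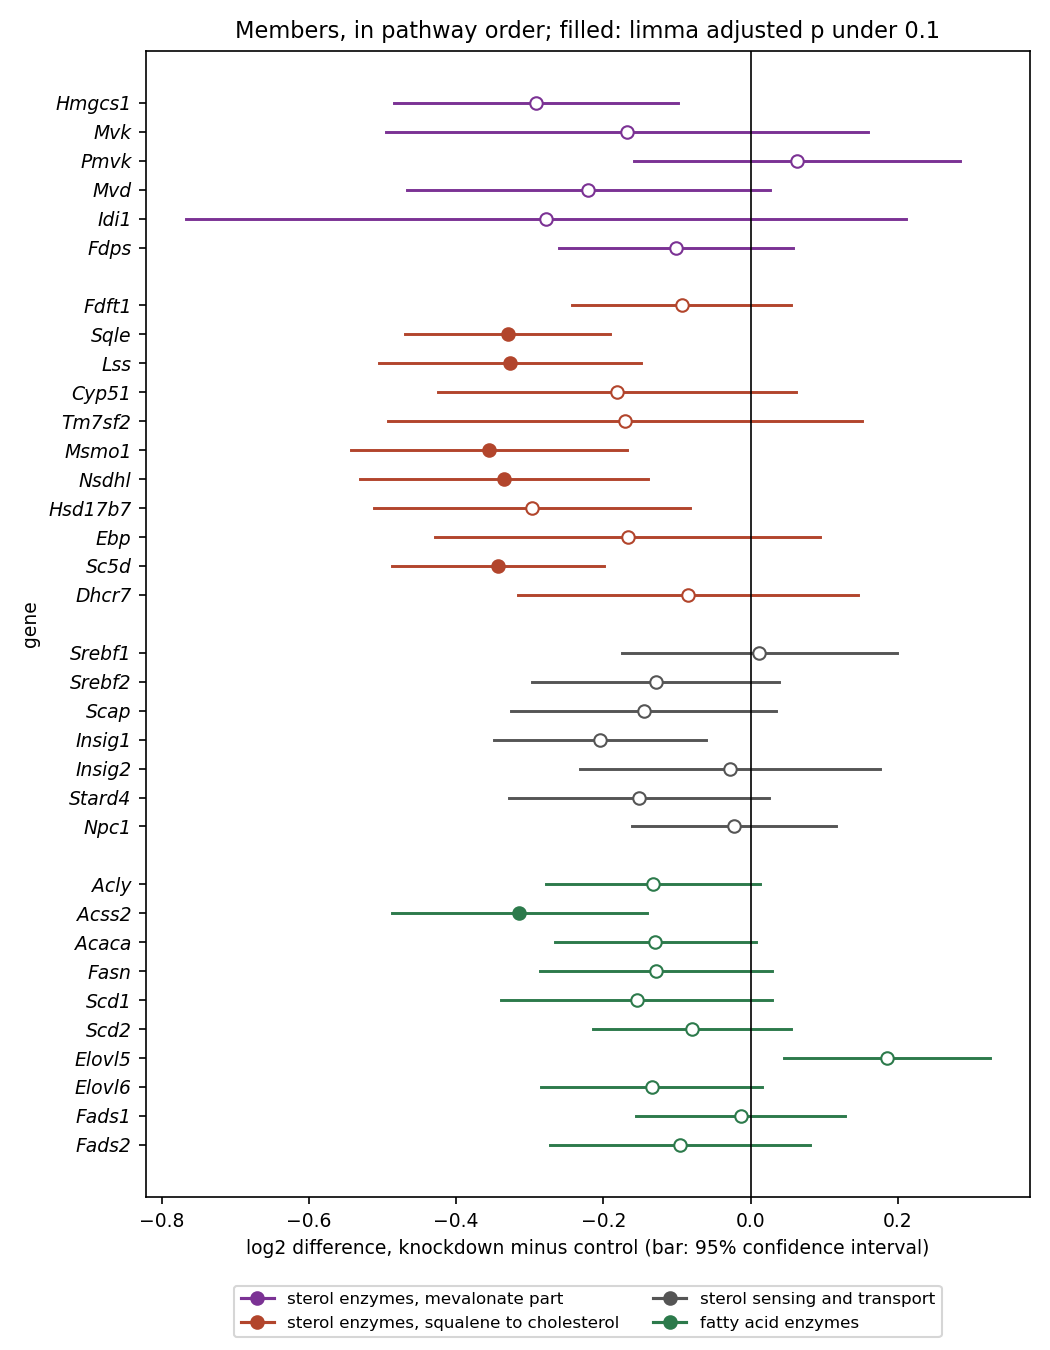
Log2 difference of each of the 34 measured genes, knockdown minus control, in pathway order from top to bottom, with its 95% confidence interval as a bar and filled points for a limma adjusted p under 0.1. The 6 filled points lie between -0.36 and -0.31, and Pmvk, Srebf1 and Elovl5 are the 3 genes to the right of 0.

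The 11 genes that take squalene to cholesterol, from squalene synthase on, were all lower in knockdown cells, with a median difference of -0.30. Of these, 5 fell (45.5%, beside 1.79% of all rows). They stand at steps from the epoxidation of squalene to the late double bond of the ring. The other 6 ranged from -0.30 to -0.09.

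Sqle encodes squalene epoxidase, which adds the oxygen that allows the ring to close and is a rate-limiting step of the route. Its values were 12.42, 12.38 and 12.34 in the knockdown arrays and 12.73, 12.72 and 12.68 in the control arrays. The 3 knockdown arrays lay close together and below all 3 control arrays. Sqle fell by 20.4%, a log2 difference of -0.33 ± 0.06 (SE, n = 3 each, 95% confidence interval -0.47 to -0.19, limma adjusted p = 0.0388).

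Lss, lanosterol synthase, closes the ring. It stood at 12.72, 12.81 and 12.85 in the knockdown arrays and at 12.98, 13.17 and 13.21 in the control arrays. The lowest control array, replicate 1, was still above the highest knockdown array, and replicate 1 was the lowest of both groups. The difference was -0.33 ± 0.08 (SE, 95% confidence interval -0.50 to -0.15, limma adjusted p = 0.0776).

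Msmo1 and Nsdhl encode a methylsterol monooxygenase and a sterol dehydrogenase that act together to strip methyl groups from the ring. Msmo1 read 13.06, 12.95 and 12.89 in the knockdown arrays, against 13.47, 13.23 and 13.27 in the control arrays. Here replicate 1 was the highest array of each group and the groups did not overlap. Msmo1 fell by 21.8% (difference -0.36 ± 0.08, SE, limma adjusted p = 0.0713). Nsdhl read 12.07, 12.32 and 12.25 in the knockdown arrays, against 12.43, 12.63 and 12.60 in the control arrays. Replicate 1 was the lowest of each group, the reverse of Msmo1, and again the groups did not overlap. The difference of Nsdhl was -0.34 ± 0.09 (SE, limma adjusted p = 0.0918).

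Sc5d, the sterol desaturase that places a late double bond in the ring, was at 11.70, 11.75 and 11.65 in the knockdown arrays and at 12.07, 12.00 and 12.05 in the control arrays. The spread within each group was small beside the distance between them. Sc5d fell by 21.2%, a difference of -0.34 ± 0.06 (SE, 95% confidence interval -0.49 to -0.20, limma adjusted p = 0.0376).

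The genes at the remaining steps did not pass. Hsd17b7, a ketosteroid reductase that works beside Msmo1 and Nsdhl, differed by -0.30 ± 0.10 (SE, limma adjusted p = 0.146), and its highest knockdown array and lowest control array both stood at 11.33. The lanosterol demethylase Cyp51 differed by -0.18, the sterol reductase Tm7sf2 by -0.17 and the isomerase Ebp by -0.17. The first and last genes of the stretch, the squalene synthase Fdft1 and the reductase Dhcr7, which makes cholesterol itself, differed by -0.09 each.

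**Figure D2:**
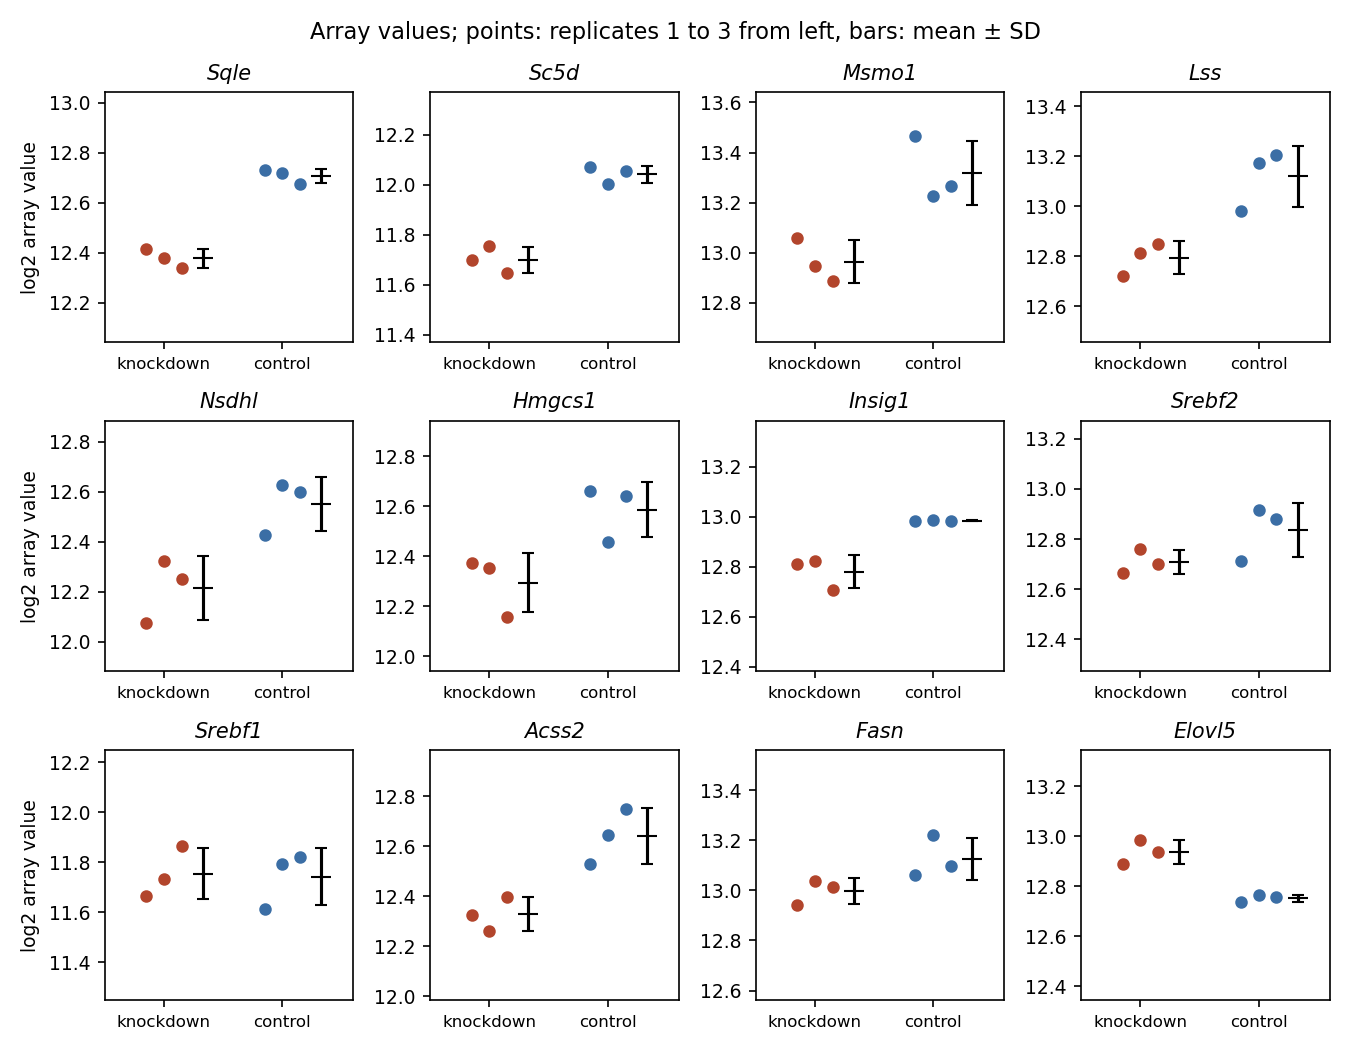
Log2 array values of 12 genes, with a point for each array (knockdown left, control right, replicates 1 to 3 from left to right in each) and the mean ± SD of the 3 arrays as a bar. The axes of all panels span the same length, each centred on its own gene. Sqle, Sc5d, Msmo1, Lss, Nsdhl, Hmgcs1, Insig1, Acss2 and Fasn show 3 knockdown points below 3 control points, Elovl5 shows the opposite, and Srebf1 and Srebf2 overlap.

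The 250 bases upstream of the start site are shown for the genes that fell and have an entry among the RefSeq promoters used here, and for Hmgcs1, which holds the sterol motif searched. They are from RefSeq on the build GRCm38.p6 and run 5′ to 3′ in the direction of the gene, ending at the base before its start. Capitals mark CCAAT on either strand (read as ATTGG on the other strand), the core that the factor NF-Y recognises, and, in Hmgcs1, TCACNCCAC, a form of the sterol regulatory element to which the SREBP proteins bind. The windows are chr9:42264301-42264550 on the minus strand (Sc5d), chr8:64733579-64733828 on the minus strand (Msmo1), chr10:76531355-76531604 on the plus strand (Lss), chrX:72918271-72918520 on the plus strand (Nsdhl), chr2:155517793-155518042 on the plus strand (Acss2) and chr13:119690101-119690350 on the plus strand (Hmgcs1).
Sc5d: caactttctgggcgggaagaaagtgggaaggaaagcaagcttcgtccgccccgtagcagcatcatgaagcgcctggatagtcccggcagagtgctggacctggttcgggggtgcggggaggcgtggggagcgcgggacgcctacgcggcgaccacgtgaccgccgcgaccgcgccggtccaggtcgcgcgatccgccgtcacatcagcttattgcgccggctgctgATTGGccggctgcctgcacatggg
Msmo1: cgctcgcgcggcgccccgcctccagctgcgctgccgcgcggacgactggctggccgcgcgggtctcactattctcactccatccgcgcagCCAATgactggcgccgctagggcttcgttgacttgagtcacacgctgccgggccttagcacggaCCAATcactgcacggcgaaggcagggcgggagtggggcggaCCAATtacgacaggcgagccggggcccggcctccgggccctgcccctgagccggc
Lss: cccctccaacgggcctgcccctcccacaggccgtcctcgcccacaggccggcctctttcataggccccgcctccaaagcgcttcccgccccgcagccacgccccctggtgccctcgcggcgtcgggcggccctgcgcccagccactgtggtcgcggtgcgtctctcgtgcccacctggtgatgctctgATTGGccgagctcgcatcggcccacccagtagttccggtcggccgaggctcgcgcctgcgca
Nsdhl: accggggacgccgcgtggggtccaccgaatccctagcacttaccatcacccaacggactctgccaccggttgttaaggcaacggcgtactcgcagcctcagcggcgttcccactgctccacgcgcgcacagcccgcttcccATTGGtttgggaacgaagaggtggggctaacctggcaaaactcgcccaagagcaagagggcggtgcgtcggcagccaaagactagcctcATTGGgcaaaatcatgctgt
Acss2: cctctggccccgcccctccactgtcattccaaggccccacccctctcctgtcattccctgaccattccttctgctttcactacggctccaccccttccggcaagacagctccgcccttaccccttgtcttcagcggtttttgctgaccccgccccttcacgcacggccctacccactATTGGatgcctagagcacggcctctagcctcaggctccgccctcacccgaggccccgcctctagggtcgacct
Hmgcs1: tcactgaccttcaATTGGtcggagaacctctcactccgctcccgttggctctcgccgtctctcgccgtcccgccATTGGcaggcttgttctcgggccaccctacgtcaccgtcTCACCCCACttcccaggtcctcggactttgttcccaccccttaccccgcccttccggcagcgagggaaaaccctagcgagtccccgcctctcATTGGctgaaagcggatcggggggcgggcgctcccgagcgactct

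Each of these 6 windows holds CCAAT, with 3 copies in Msmo1 and in Hmgcs1, 2 in Nsdhl and 1 in Sc5d, Lss and Acss2. Among the members, 27 of 35 genes had 1 or more windows, and 22 of their 35 windows (62.9%) held CCAAT on either strand, beside 33.8% of all 32851 promoter windows of the same length. GGGCGG, the GC box, was in 71.4% of the members' windows and 32.7% of all windows. TCACNCCAC was in 2.86% (Hmgcs1 alone) and 1.05%, and ATGCAAAT, the octamer that POU-domain factors recognise, in 2.86% (Srebf2 alone) and 1.6%. Both strands were searched, matches of different motifs were allowed to overlap, and a match describes the letters of the window and no more.

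The mevalonate stretch, which leads to farnesyl diphosphate, had 6 measured genes, 5 of them lower in knockdown cells, with a median difference of -0.19. None passed the test with limma, and Hmgcs1 alone had an unadjusted p under 0.05. Hmgcs1, the synthase that makes HMG-CoA, stood at 12.37, 12.35 and 12.16 in the knockdown arrays and at 12.66, 12.46 and 12.64 in the control arrays. The groups did not overlap, and the difference was -0.29 ± 0.09 (SE, n = 3 each, 95% confidence interval -0.48 to -0.10, limma adjusted p = 0.126). The isomerase Idi1 differed by -0.28, but its arrays ranged widely, with 11.95, 11.65 and 11.39 in knockdown cells and 12.49, 11.64 and 11.70 in control cells. Control replicate 1 stood far above the other 5 arrays, and the interval ran from -0.77 to 0.21. The decarboxylase Mvd differed by -0.22, the mevalonate kinase Mvk by -0.17 and the farnesyl diphosphate synthase Fdps by -0.10. Pmvk, the kinase of the next step after Mvk, differed by 0.06, with an interval of -0.16 to 0.28.

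Over both stretches, 5 of 17 sterol enzyme genes fell (29.4%, beside 1.79% of all rows) and the median difference was -0.22. Knockdown arrays lay wholly below control arrays for 7 of the 17 (41.2%, beside 15.1% of all rows). Hsd17b7 is counted among these 7, although its highest knockdown and lowest control arrays both read 11.33. The knockdown array was below the control array of its number in all 3 pairs for 14 of the 17 (82.4%, beside 29% of all rows). With the replicate number as a block, 12 of the 17 fell (70.6%, beside 10.7% of all rows, and 12.3% of all rows rose), Hmgcs1 (limma adjusted p = 0.0347), Hsd17b7 (0.0132), Mvd (0.0357), Idi1 (0.0723), Mvk (0.0899), Cyp51 (0.0740) and Tm7sf2 (0.0934) being added. The count rested on the rows tested and on single arrays. When all 35556 rows of the table were tested, including those without a listed symbol, none of the 17 passed (limma adjusted p of 0.133 to 0.236 for the 5 genes), nor did any without knockdown replicate 2, control replicate 2 or control replicate 3, while 3 passed without knockdown replicate 1, 2 without knockdown replicate 3 and 5 without control replicate 1.

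The 7 genes that sense or move sterols had a median difference of -0.13, 6 of them below 0, and none passed the test with limma (1 had an unadjusted p under 0.05). Insig1, the retention factor that is itself a well-known target of the SREBP proteins, was the furthest from 0. Its values were 12.81, 12.82 and 12.71 in the knockdown arrays and 12.98, 12.99 and 12.98 in the control arrays. The control arrays were almost identical and all above the knockdown arrays, with a difference of -0.20 ± 0.06 (SE, n = 3 each, 95% confidence interval -0.35 to -0.06, limma adjusted p = 0.140, or 0.0499 with the replicate number as a block). Insig2, its relative, overlapped between groups, with 11.57, 11.25 and 11.41 in the knockdown arrays against 11.46, 11.34 and 11.51 in the control arrays. The difference was -0.03 (interval -0.23 to 0.18).

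The transcription factor genes were closer to 0. Srebf2 stood at 12.66, 12.76 and 12.70 in the knockdown arrays and at 12.71, 12.92 and 12.88 in the control arrays, a difference of -0.13 (interval -0.30 to 0.04, limma adjusted p = 0.358). Each knockdown array was below the control array of its number, but the groups overlapped through control replicate 1. Srebf1 stood at 11.66, 11.73 and 11.87 in the knockdown arrays and at 11.61, 11.79 and 11.82 in the control arrays. These overlapped fully, and the difference of 0.01 had an interval of -0.18 to 0.20.

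Scap, the escort protein, stood at 11.83, 11.96 and 11.96 in the knockdown arrays and at 11.93, 12.15 and 12.12 in the control arrays. Its difference was -0.15 (limma adjusted p = 0.335), with control replicate 1 inside the range of the knockdown arrays. Stard4, a carrier of cholesterol between membranes, stood at 11.26, 11.22 and 11.10 in the knockdown arrays and at 11.23, 11.35 and 11.45 in the control arrays, a difference of -0.15 (limma adjusted p = 0.311) with overlapping groups. Npc1, which exports cholesterol from lysosomes, differed by -0.02 (interval -0.16 to 0.12).

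The 10 fatty acid genes had a median difference of -0.13, with 9 below 0 and 1 above. Only Acss2 fell (10% of the 10, beside 1.79% of all rows), and none rose. Acss2 makes acetyl-CoA from acetate and so feeds both branches. It stood at 12.32, 12.26 and 12.40 in the knockdown arrays and at 12.53, 12.65 and 12.75 in the control arrays. The groups did not overlap, and Acss2 fell by 19.6%, a difference of -0.31 ± 0.08 (SE, n = 3 each, 95% confidence interval -0.49 to -0.14, limma adjusted p = 0.0797). It did not pass without any 1 array other than control replicate 1, nor when all rows of the table were tested (adjusted p = 0.211).

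The central enzymes of the branch differed by similar small amounts. Acly, which makes acetyl-CoA from citrate, Acaca, the carboxylase that commits it to fatty acids, and Fasn, the fatty acid synthase, differed by -0.13 each, and Elovl6, an elongase of saturated chains, by -0.13 too. Acaca stood at 10.91, 10.97 and 10.93 in the knockdown arrays and at 11.05, 11.09 and 11.06 in the control arrays, so that the groups did not overlap, with a limma adjusted p of 0.272. In this branch the knockdown arrays lay wholly below the control arrays for 6 genes (Acly, Acss2, Acaca, Fasn, Scd2 and Elovl6), which is 60% of the 10 beside 15.1% of all rows. The desaturases Scd2, Scd1, Fads2 and Fads1 differed by -0.08, -0.15, -0.10 and -0.01. Scd1 and Scd2 are close relatives, and whether probes of one read the other was not tested.

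Elovl5, an elongase of polyunsaturated chains, went the other way. It stood at 12.89, 12.98 and 12.94 in the knockdown arrays and at 12.74, 12.76 and 12.75 in the control arrays. All 3 knockdown arrays lay above the control arrays, as for 10.9% of all rows. Each was above the control array of its number, as for 23.8% of all rows. The difference was 0.19 ± 0.06 (SE, n = 3 each, 95% confidence interval 0.05 to 0.32, limma adjusted p = 0.159, or 0.0622 with the replicate number as a block).

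Array by array, the median of the 17 sterol enzyme genes, each centred on its own mean over the 6 arrays, was -0.17, -0.06 and -0.11 in knockdown replicates 1 to 3, against -0.01, 0.12 and 0.18 in control replicates 1 to 3. Replicate 1 was the lowest array of each group, and the groups did not overlap. Between arrays of the same number the median difference of the sterol enzymes was -0.26, -0.11 and -0.26 in pairs 1 to 3, with 16, 14 and 17 of the 17 below 0. For sensing and transport it was 0.02, -0.13 and -0.16, and for the fatty acid enzymes -0.10, -0.13 and -0.09. The medians over all rows were between -0.03 and -0.01 in the 3 pairs. Whether the sterol and fatty acid branches differed from each other was not tested.

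**Figure D3:**
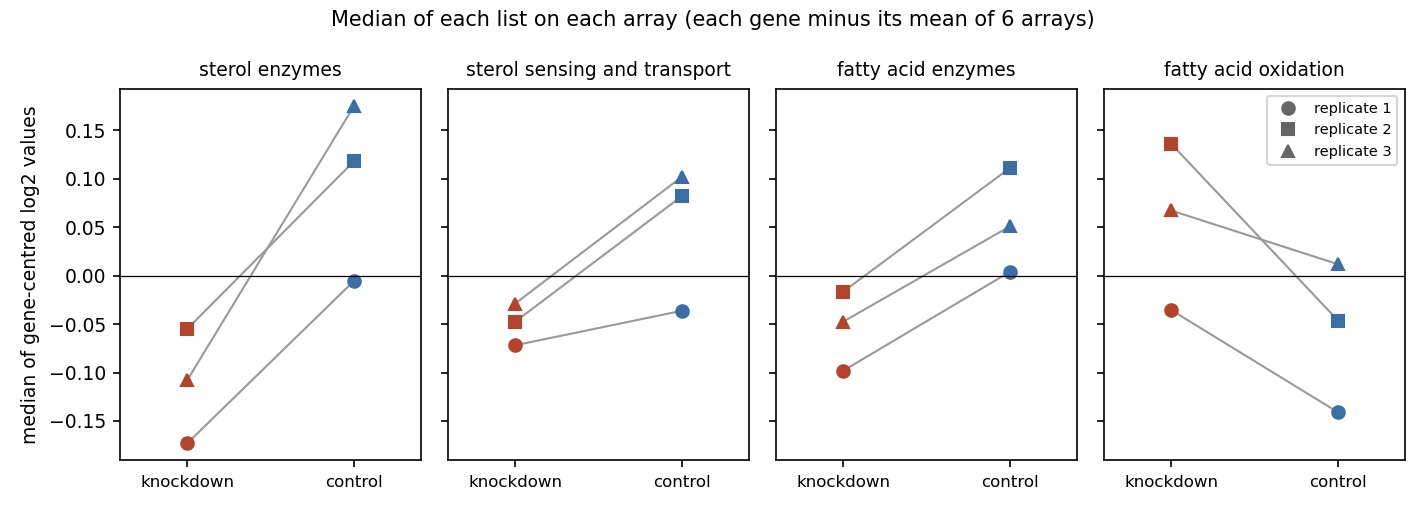
Median over each list of the log2 values of its genes on each array, after each gene was centred on its mean over the 6 arrays, with knockdown left, control right and lines joining arrays of the same replicate number. The sterol enzyme, sensing and transport, and fatty acid enzyme medians were lower in the knockdown array of all 3 pairs. The fatty acid oxidation medians were higher in all 3. For sensing and transport, the median of the gene differences in pair 1 was nevertheless 0.02.

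Other genes of fat and sterol metabolism were counted in the same test, in lists chosen with earlier results of these data known. Of 4 measured genes of other sterol synthesis and uptake steps, none passed with limma, and their median difference was -0.11. At an unadjusted p under 0.05 there was 1 lower gene, beside 10.2% of all rows. With the replicate number as a block 2 of the 4 fell (50%, beside 10.7% of all rows). Of 25 measured genes of other steps of fatty acid synthesis and activation, 18 were below 0, with a median of -0.07. Of the 25, 2 fell (8%, beside 1.79% of all rows), or 8 with the replicate block (32%, beside 10.7% of all rows). Thrsp, a regulator of fat synthesis, was at 7.76, 7.66 and 7.86 in the knockdown arrays and at 8.06, 8.10 and 8.12 in the control arrays, a difference of -0.33 (limma adjusted p = 0.0551). Hacd4, which belongs to the dehydratase family of chain elongation, also differed by -0.33 (limma adjusted p = 0.0607).

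The genes of fatty acid oxidation, the route that burns rather than builds the chains, lay on the other side of 0. Of 19 measured, 17 were above 0, beside 42.5% of all rows, and the median difference was 0.15. In the test 3 rose (15.8%, beside 2.66% of all rows) and none fell. As this list was chosen with earlier results of these data known, its share is not independent of them. Acadl, an acyl-CoA dehydrogenase of the first step, was at 10.60, 10.46 and 10.24 in the knockdown arrays and at 9.99, 9.58 and 9.81 in the control arrays. The lowest knockdown array was above the highest control array, and Acadl was called at 0.64 ± 0.12 (SE, n = 3 each, limma adjusted p = 0.0367). Decr1, a reductase needed for unsaturated chains, was at 9.09, 9.13 and 8.90 in the knockdown arrays and at 8.70, 8.61 and 8.59 in the control arrays, and was called at 0.41 (limma adjusted p = 0.0407). Hsd17b4, a peroxisomal enzyme, rose by 0.34 (limma adjusted p = 0.0951), below the fold minimum. With the replicate number as a block 6 of the 19 rose, beside 12.3% of all rows. The counts of these other lists were not recomputed with single arrays left out or with all rows of the table.

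**Figure D4:**
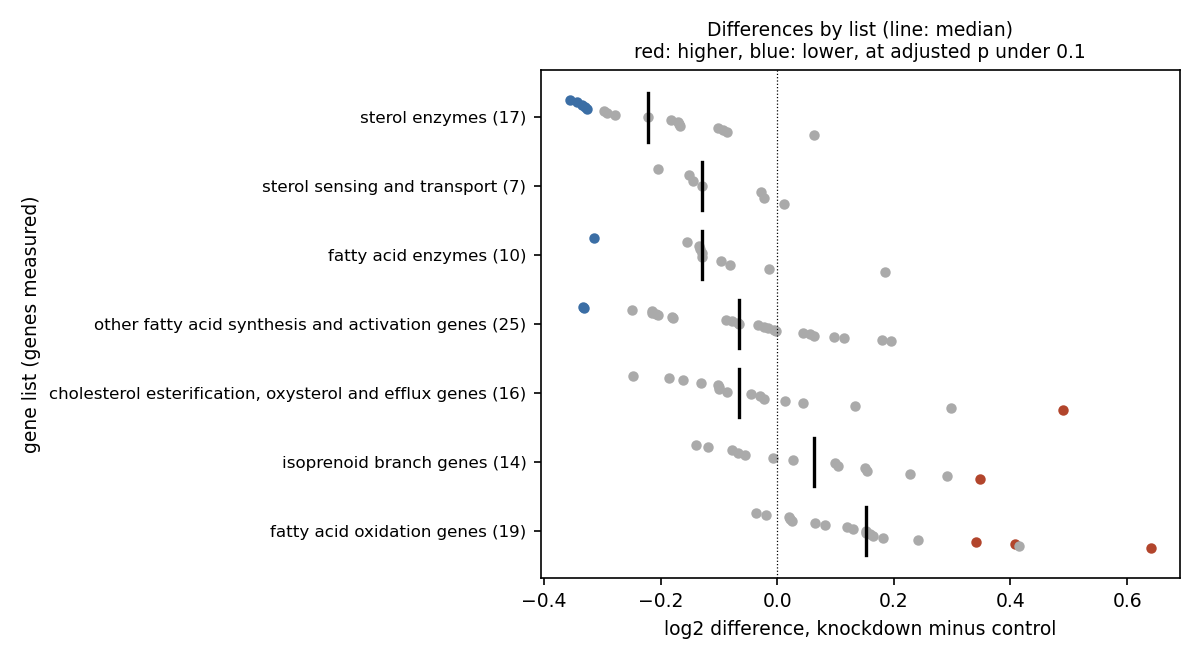
Log2 differences, knockdown minus control, of the measured genes of 7 lists, with a point for each gene (blue for lower and red for higher at a limma adjusted p under 0.1) and a line at the median of each list. The medians run from -0.22 for the sterol enzymes to 0.15 for fatty acid oxidation.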

How the data were processed

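Total RNA of 3 knockdown and 3 control transfections of N2A cells was measured on Affymetrix Mouse Gene ST arrays. The deposited values are log2 signals per gene, made by the authors with RMA background correction followed by quantile normalisation, which removes any shift common to most transcripts. The submitters' processing notes name RMA and limma and give no version. Values ran from 3.16 to 14.89 and the medians of named rows from 8.58 to 8.62. Precision is limited by the number of arrays.

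Symbols came from the platform's annotation. Of 35556 rows, 21789 had 1 symbol, 1621 several and 12146 none listed, and 21698 of the rows with 1 symbol matched RefSeq by Entrez identifier. No source read here names the genome build behind the probes. The 21789 rows were fitted with limma 3.58.1 in R 4.3.3 (lmFit and eBayes, knockdown minus control, two-sided), with Benjamini-Hochberg adjustment over those rows and calls at an adjusted p under 0.1 and at least 1.3-fold. The methods' variance filter, whose reading is an interpretation, was an alternative, as were all rows, other scalings, a variance trend, a level filter, the mean of a symbol's rows, the replicate block, and each array left out. The fit was tested on simulated data.

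Members and lists were chosen with earlier results of these data known. Named with values in every array are the members that passed, otherwise those with the lowest p in each branch, and the SREBP, Scap and Insig genes. Fasn, Idi1 and Hsd17b7 were added after their values were seen. Of other lists, up to 3 genes that passed are named. Replicate numbers are from the labels. Deviations from the group means correlated at 0.638, 0.307 and 0.289 between arrays of the same number, all over 0.1, the level set for taking the numbers as pairs. Between arrays of different numbers the correlations ran from -0.478 to 0.254, with knockdown 3 and control 2 at 0.254 and knockdown 2 and control 3 at 0.216, so replicates 2 and 3 were little set apart from each other.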

Additional observations from a re-analysis of the deposited data

How the results depend on the processing

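Of 445 comparisons of a value with its value under another setting, 364 were taken as the same, 45 no longer passed, 5 newly passed, 25 moved and 6 changed sign. A gene was taken as the same if it kept its direction and its side of the threshold. For a median the move had to be smaller than the spread between replicates. A count had to be equal or within a set ratio, and many counts were 0 under both settings. With all rows of the table, or with all rows above the median variance, none of the sterol enzymes fell, against 5 in the main test, and none of the fatty acid enzymes, against 1, while the median of the 2 fatty acid genes left by the variance filter was -0.23 and no sensing or transport gene was left by it. With the filter on rows with 1 symbol 3 fatty acid genes were left, of which none fell, and 4 sensing or transport genes. Over all genes, the calls fell to 18 lower and 10 higher with all rows, or 10 and 2 with the filter on all rows, against 149 and 284.

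Under the replicate block 12 sterol genes and 1 sensing gene (Insig1) fell and 1 fatty acid gene (Elovl5) rose, against 5, 0 and 0 without it, while Pou3f3 passed at -0.16. Of all rows, 10.7% fell and 12.3% rose under the block, beside 1.79% and 2.66% without it. With a variance trend and robust fit 1 sensing gene (Insig1) fell. With all rows and the block together, chosen after seeing the data, 0 sterol and 0 fatty acid genes fell, with limma adjusted p of 0.1004 to 0.1193 for the 6 genes.

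With 1 array left out, sterol genes that fell numbered 0 to 5 and those called 0 to 3 (3 without control replicate 1), and fatty acid genes that fell 0 to 1. The median differences ranged from -0.28 to -0.22 for sterol enzymes, from -0.191 to -0.0883 for sensing and transport, and from -0.15 to -0.09 for fatty acid enzymes. Pou3f3 ranged from -0.23 to -0.10. Without both arrays numbered 1, a setting chosen after seeing the data, the sterol enzyme median was -0.171. Sensing and transport then had a median of -0.1694 and the fatty acid enzymes one of -0.1165. Calls over all genes fell to 80 lower and 67 higher without knockdown replicate 2, 83 and 78 without control replicate 2, and 90 and 129 without control replicate 3. Srebf1 ranged from -0.0535 to 0.0569, below 0 without knockdown replicate 3 or control replicate 1, and was -0.0187 with cyclic loess and -0.00838 without both arrays numbered 1, an alternative chosen after seeing the data. Insig2 ranged from -0.108 to 0.0494, above 0 without knockdown replicate 2 or control replicate 3. The cause of these changes was not tested.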

Other observations

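The side branches of sterol metabolism, whose lists were also chosen with earlier results known, showed single genes that rose. Of 14 measured genes that use isoprenoids to make other products or to modify proteins, 8 were above 0, with a median difference of 0.06. Only Rabggtb rose (7.14%, beside 2.66% of all rows). With the replicate number as a block 3 rose, beside 12.3% of all rows. Rabggtb, a subunit of the enzyme that attaches geranylgeranyl groups to Rab proteins, stood at 11.29, 11.17 and 11.16 in the knockdown arrays and at 10.96, 10.72 and 10.89 in the control arrays. The groups did not overlap, and the difference was 0.35 ± 0.08 (SE, n = 3 each, limma adjusted p = 0.0700).

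Of 16 measured genes of cholesterol esterification, oxysterols and efflux, 11 were below 0, with a median difference of -0.07. Only Lipa rose (6.25%, beside 2.66% of all rows). With the replicate number as a block 2 rose and 2 fell, beside 12.3% and 10.7% of all rows. Lipa, the lysosomal acid lipase that frees cholesterol from its esters, stood at 9.43, 9.96 and 9.65 in the knockdown arrays and at 9.20, 9.18 and 9.20 in the control arrays. All 3 knockdown arrays were above the control arrays, which agreed closely, and Lipa was called at 0.49 ± 0.12 (SE, n = 3 each, limma adjusted p = 0.0747).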
